A study of Mus musculus with 6 samples.

Results

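Mrps5 encodes a protein of the small subunit of the mitochondrial ribosome, and the 30 genes described here are those named for proteins of that subunit, namely Dap3 and 29 genes with Mrps symbols, Mrps5 among them. They were chosen by name from a table of 26199 genes, and all 30 were among the 13262 genes with at least 1 FPKM (fragments per kilobase of transcript scaled to the number of mapped fragments) in at least 3 of the 6 libraries. The libraries came from mouse hearts at embryonic day 12, with 3 of Ctrl hearts (Mrps5 fl/fl) and 3 of cKO hearts (Mrps5 fl/fl; cTNT-Cre). Both groups carried the floxed Mrps5 alleles, and the groups differed in cTNT-Cre, a Cre recombinase driven by the cardiac troponin T promoter, which acts in cardiomyocytes and leaves the gene intact in the other cells of the heart. Each library was made from a pool of hearts, and the controls were littermates. The comparison addresses whether the transcripts of the other small subunit proteins differed in hearts in which 1 of them had been targeted.

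The mitochondrial ribosome translates the few messages that mitochondrial DNA encodes, all for subunits of the respiratory chain and ATP synthase, and these enzymes carry the energy supply of heart muscle. Its small subunit binds the messenger RNA and decodes it, and its large subunit joins the amino acids. The RNA of each subunit comes from the mitochondrial genome, while all of the proteins are encoded in the nucleus, made in the cytosol and imported. Some small subunit proteins have counterparts in the same position of bacterial ribosomes, among them the products of Mrps5 and Mrps12, and others are found in mitochondria alone, among them the GTP-binding protein made from Dap3. Ribosomal RNA of the mitochondria (mt-Rnr1, mt-Rnr2) was not analysed here.

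Promoter sequence was taken for the members from RefSeq on GRCm38.p6, a later mouse build than the mm9 that the submitters' processing notes name, and 26 of the 30 members had an entry. Dap3, Mrps28, Mrps34 and Mrps35 did not. The first set shows the 250 bases before the annotated start of Mrps5, the targeted gene, and of Mrps18b and Mrps25, the members with the largest positive and negative differences among its partners. Each is written 5′ to 3′ in the direction of the gene, and capitals mark a match to GCATGCGC, the core of the site of the transcription factor NRF1, which is known to act on nuclear genes for mitochondrial proteins.
Mrps5, chr2:127587176-127587425 (plus strand): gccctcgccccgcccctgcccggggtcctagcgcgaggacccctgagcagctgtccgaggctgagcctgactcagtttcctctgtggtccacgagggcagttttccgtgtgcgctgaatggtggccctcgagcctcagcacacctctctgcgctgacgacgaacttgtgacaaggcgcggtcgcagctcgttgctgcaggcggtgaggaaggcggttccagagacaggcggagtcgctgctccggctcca
Mrps18b, chr17:35916441-35916690 (minus strand): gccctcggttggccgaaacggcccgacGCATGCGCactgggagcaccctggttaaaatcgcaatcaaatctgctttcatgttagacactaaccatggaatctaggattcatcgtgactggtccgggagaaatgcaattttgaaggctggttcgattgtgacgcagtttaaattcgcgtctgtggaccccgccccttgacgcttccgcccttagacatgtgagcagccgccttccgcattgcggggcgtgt
Mrps25, chr6:92184024-92184273 (minus strand): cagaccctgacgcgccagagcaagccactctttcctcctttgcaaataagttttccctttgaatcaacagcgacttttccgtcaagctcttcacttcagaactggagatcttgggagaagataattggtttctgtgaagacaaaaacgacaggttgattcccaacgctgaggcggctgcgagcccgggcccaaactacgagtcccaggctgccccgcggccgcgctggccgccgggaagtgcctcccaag

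Exact matches to 3 motifs were counted on both strands, in windows that ran from 250 bases before the start to 50 after it. GCATGCGC was found in Mrps18b alone of the 26 members (3.85%), at 223 bases before and again 28 bases after the start, while 3.05% of the 27025 genes in the promoter table held it, and 6.12% of the 9582 genes that were both in that table and tested here. CCGGAAG, the core bound by ETS family factors, was found in 11 of 26 members (42.3%) against 9.93% of all genes in that table, and against 20.5% of those tested here. ATGGCGGC, which belongs to the site of YY1, was found in 5 members (19.2%), against 2.60% of all genes in the table and 5.89% of those tested here. In all, 14 of the 26 members (53.8%) held at least 1 of the motifs, against 14.2% of all genes in the table and 29.2% of those tested here, and Mrps25 held none. No match to 1 motif overlapped a match to another in the members, and these shares are descriptions of the sequence, with no test.

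The 5 members with the YY1 letters are set side by side over 30 bases each, because in 4 of them the match lay just inside the transcript, from 2 bases after the start in Mrps5 to 18 bases after it in Mrps30. Capitals mark the match, which in Mrps11 lies 110 bases before the start and on the other strand.
Mrps5, chr2:127587417-127587446 (plus strand): ccggctccagcATGGCGGCggccgtacgcg
Mrps18a, chr17:46111007-46111036 (plus strand): tgcgttccaagATGGCGGCcctcagggctc
Mrps27, chr13:99344792-99344821 (plus strand): tgcgctccaagATGGCGGCtcccatggtgc
Mrps30, chr13:118387216-118387245 (minus strand): ggcgggcgaaaATGGCGGCggccaggtatt
Mrps11, chr7:78783010-78783039 (plus strand): gccctacgggcGCCGCCATctttctgtctt

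Transcripts of the 30 genes were present at unequal levels in control hearts. FPKM is scaled to transcript length, so the order of levels also depends on the length assigned to each gene. In the GENCODE M21 annotation the main transcript of Mrps21, the highest member, had 488 bases. Those of Mrps25, Mrps26 and Mrps35, the lowest 3, had 6073, 4278 and 4162 bases. Mrps28, with a control mean of 18.4 FPKM, had 783 bases. The part of length in the order was not tested. The control mean was between 10 and 40 FPKM for 24 of the 30 members, and the highest exceeded the lowest 23.9-fold. The median of the control means was 17.7 FPKM, and that of the cKO means was 18.7 FPKM. Mrps5 stood 26th of 30 in control hearts, in the lower part of the order.

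Mrps21, a member with a bacterial counterpart, had the highest level, with 106, 109 and 116 FPKM in the Ctrl libraries and 90.5, 93.2 and 113 FPKM in the cKO libraries. Its groups overlapped through the library labelled cKO 3, and its log2 fold change was -0.16 (SE 0.104, adjusted p = 0.498 from limma), which became -0.26 without that library (adjusted p = 0.241) and -0.10 without cKO 1. Next came Mrps36, with 39.2, 42.2 and 45.7 FPKM in Ctrl and 33.4, 35.8 and 40.04 FPKM in cKO. Mrps36 is now known as a component of the 2-oxoglutarate dehydrogenase complex and not of the ribosome, and only the library labelled cKO 3 lay inside its control range (log2 fold change -0.21, SE 0.098, adjusted p = 0.351 from limma). Mrps15 was the third, at 36.4, 38.4 and 36.8 FPKM in Ctrl and 36.7, 38.4 and 38.2 FPKM in cKO. These 6 values of Mrps15 lay within 1 narrow range, with a log2 fold change of 0.02 (SE 0.074, the smallest standard error of the members).

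At the low end, Mrps26 had 4.33, 4.49 and 5.04 FPKM in Ctrl and 4.34, 4.63 and 5.35 FPKM in cKO, and Mrps35 had 7.62, 7.33 and 7.73 FPKM in Ctrl and 7.44, 7.37 and 7.72 FPKM in cKO. Both encode proteins found in mitochondrial ribosomes alone, and both differed by less than the spread between replicates (log2 fold changes 0.04, SE 0.109, and -0.01, SE 0.083). The sign of these small values was not stable and changed for Mrps35 under another scaling of the libraries. Mrps25, at a control mean of 5.05 FPKM, was the other member of the lowest 3 and is described with the partners that differed.

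Along the order of control means, most neighbours could not be separated. Of the 29 neighbouring pairs, 7 were further apart than the sum of their SDs, namely the steps from Mrps21 to Mrps36, Mrps36 to Mrps15, Mrps15 to Mrps18c, Mrps24 to Mrps18a, Mrps5 to Mrps16, Mrps16 to Mrps35, and Mrps35 to Mrps25. Between Mrps18a at 24.5 FPKM and Mrps5 at 10.5 FPKM no neighbours met that mark.

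**Figure D1:**
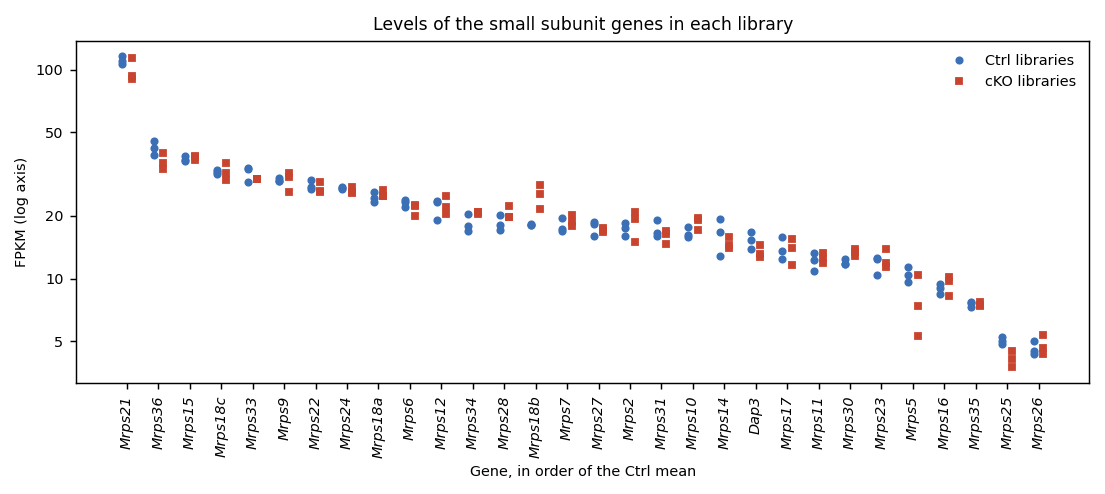
FPKM on a log axis of the 30 small subunit genes, in order of the control mean, with a circle for each Ctrl library and a square for each cKO library. The levels run from 110 FPKM for Mrps21 to 4.62 FPKM for Mrps26 in the control mean, and the cKO squares of Mrps5 spread from 5.28 to 10.4 FPKM.

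Mrps5 itself (ENSMUSG00000027374) was lower in some cKO libraries and not in all. Its FPKM was 9.65, 11.4 and 10.4 in Ctrl 1, 2 and 3, and 5.28, 7.41 and 10.4 in cKO 1, 2 and the library labelled cKO 3. The first 2 cKO values lay below every control, and the last lay within the control range. The mean was 10.5 ± 0.864 FPKM (SD, n = 3) in Ctrl and 7.69 ± 2.56 FPKM (SD, n = 3) in cKO hearts, or 73.5% of control. On the log2(FPKM + 1) scale, which understates the change of low genes, the difference was -0.44 (SE 0.194, 95% interval -0.885 to 0.006), and it did not pass (adjusted p = 0.339 from limma with Benjamini-Hochberg adjustment over all genes tested). Without the library labelled cKO 3 it was -0.66 (adjusted p = 0.0693), and without cKO 1 it was -0.23 (adjusted p = 0.578).

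The spread of Mrps5 in cKO hearts was the widest of the set. Its coefficient of variation was 33.3% among the cKO libraries and 8.25% among the controls, where the median member had 7.25% in cKO and 7.46% in Ctrl. Its standard error was also the largest, and that of its partners ran from 0.0736 to 0.139.

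The same split of the cKO libraries was seen when Mrps5 was set against its partners within a library. Its FPKM was 57.4%, 63.0% and 54.6% of the median partner in Ctrl 1, 2 and 3, 27.0% and 37.4% in cKO 1 and 2, and 52.8% in the library labelled cKO 3. In that last library its value was slightly under the 3 controls by this measure, and within their range as a share of the members' summed FPKM (1.52%, against 1.49% to 1.70% in Ctrl). Against the mean of the controls, Mrps5 was the lowest of the 30 members in cKO 1 (-0.87 on the log2 scale) and in cKO 2 (-0.44), and 12th from the bottom in the library labelled cKO 3 (-0.01). Over the 2 groups its difference was the most negative of the members in the comparison as made and under all 15 alternatives that were run.

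The table lists 2 transcripts of Mrps5. The first, ENSMUST00000028852, held 96.7% to 99.7% of the gene's FPKM in every library, and the second, ENSMUST00000146131, was at 0.03 to 0.04 FPKM in 5 libraries and at 0.343 FPKM in the library labelled cKO 3. The level of this second transcript there was 3.31% of the gene's FPKM, so the first alone was at 10.03 FPKM, still within the control range of 9.62 to 11.3. Neither value separates messages with the floxed sequence from those without it.

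**Figure D2:**
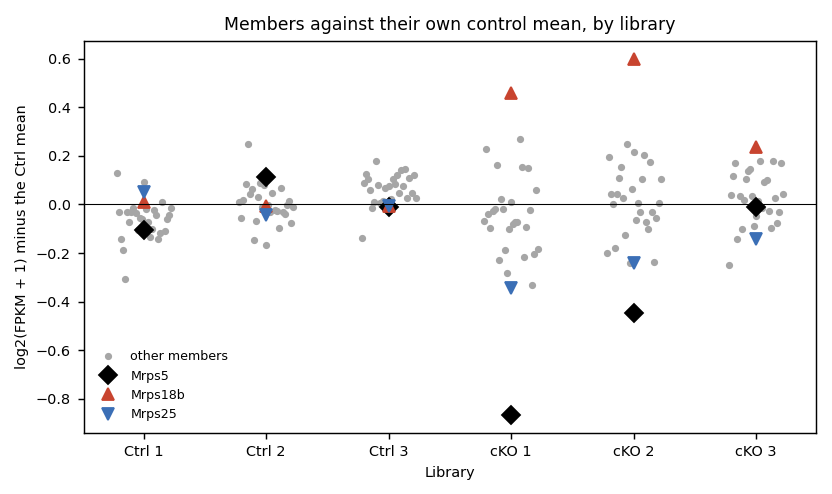
Difference of log2(FPKM + 1) from the gene's own control mean (vertical axis) for all 30 members in each of the 6 libraries (horizontal axis), with Mrps5 as diamonds, Mrps18b as upward and Mrps25 as downward triangles and the rest in grey. Mrps5 is lowest in cKO 1 (-0.87) and cKO 2 (-0.44) and at -0.01 in the library labelled cKO 3, while Mrps18b is the highest member in each cKO library.

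Taken as a group, the 29 partners stayed close to the control level. In cKO hearts the mean of 20 of the 29 was within 10% of the control mean. The 95% interval of the log2 fold change contained 0 for 27 and lay within 0.5 log2 units of 0 on either side for 28, Mrps18b being the exception. Over all partners the lowest bound was -0.470 (Mrps25) and the highest 0.670 (Mrps18b), or 0.377 without Mrps18b. No interval of a partner reached below -0.470, and the intervals extended 0.169 to 0.319 log2 units to either side of the fold change.

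Of the 30 members, 2 had an unadjusted p under 0.05, Mrps18b higher and Mrps25 lower in cKO, where 15.0% of the 13262 genes tested were past that mark, 5.58% higher and 9.43% lower. The members' share was 6.67%, and its difference from that of all genes was not tested. Without Ctrl 1 the count was 3 of 30 members, against 9.17% of all genes. None reached an adjusted p of 0.05 from limma, a mark that 11 genes or 0.0829% of all genes passed. By sign, 16 members were lower and 14 higher in cKO, while 55.0% of all genes were lower. The median log2 fold change was -0.01 over the members and -0.02 over all genes, and the members' median ranged from -0.04 to 0.03 and changed sign over the 15 alternatives. The 3 cKO values lay above the 3 Ctrl values in 3 members (Mrps18b, Mrps30 and Mrps34) against 7.74% of all genes, and below them in 1 (Mrps25) against 13.0%. Without the library labelled cKO 3, 5 members (16.7%) had an unadjusted p under 0.05, Mrps18b being higher and Mrps5, Mrps21, Mrps25 and Mrps36 lower, while 15.2% of all genes passed that mark in the same fit. Mrps18b was the only member past the adjusted threshold in that fit (adjusted p = 0.0307 from limma), as were 269 of all genes.

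**Figure D3:**
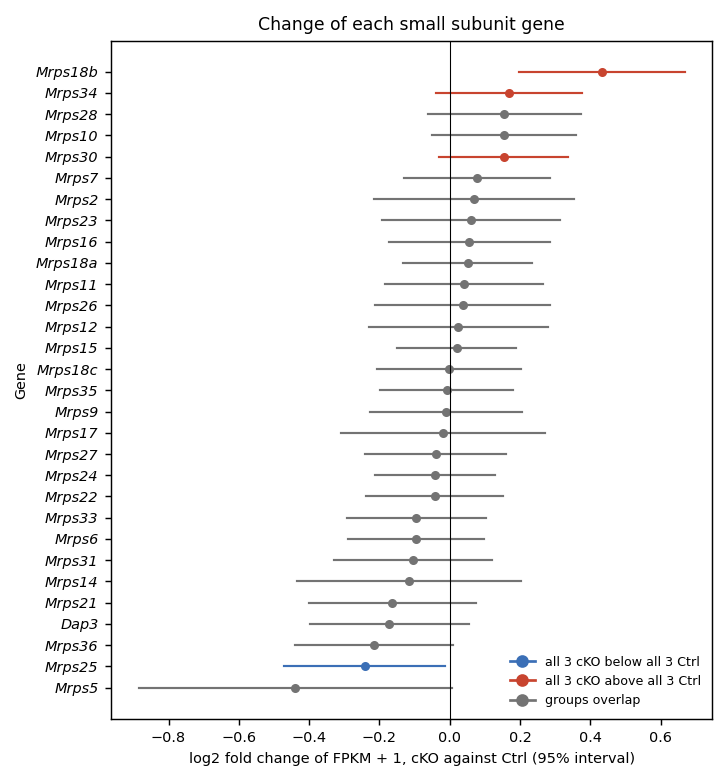
Log2 fold change of FPKM + 1 in cKO against Ctrl hearts (horizontal axis) with its 95% interval from limma, for each of the 30 members (vertical axis) in order of size, blue where all 3 cKO values were below all 3 Ctrl values, red where they were above and grey where the groups overlapped. Of the partners, the intervals of Mrps18b and Mrps25 leave out 0, and that of Mrps5 is the widest.

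Mrps18b (ENSMUSG00000024436) had the largest difference of the partners, and it was higher in cKO hearts. Its FPKM was 18.2, 18.0 and 18.0 in Ctrl 1, 2 and 3 and 25.3, 27.9 and 21.5 in cKO 1, 2 and the library labelled cKO 3. All cKO values lay above the controls, whose SD was 0.139 FPKM, and the library in which Mrps5 was at the control level had the smallest of the cKO values. The cKO mean was 138% of control, with a log2 fold change of 0.43 (SE 0.103, 95% interval 0.197 to 0.670, adjusted p = 0.153 from limma). Its adjusted p ranged from 0.0307 to 0.445 over the alternatives, and the difference itself from 0.35 to 0.55. Mrps18b is 1 of 3 paralogs that descend from the gene of bacterial ribosomal protein S18, and the other two had smaller differences. Mrps18a was at 24.2, 23.4 and 26.0 FPKM in Ctrl and at 24.9, 25.0 and 26.5 FPKM in cKO (log2 fold change 0.05, SE 0.080), and Mrps18c was at 31.6, 33.1 and 32.5 FPKM in Ctrl and at 31.95, 29.6 and 35.7 FPKM in cKO (0.00, SE 0.090). The groups of both overlapped. Of the 5 transcripts listed for Mrps18b, ENSMUST00000025305 held at least 90.8% of the FPKM in every library and went from 17.4, 16.4 and 17.6 FPKM in Ctrl to 25.3, 26.7 and 20.3 FPKM in cKO, so the difference lay in the main transcript.

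Mrps25 (ENSMUSG00000014551), which encodes a protein of mitochondrial ribosomes alone, was the partner with the most negative difference. It was at 5.27, 4.86 and 5.02 FPKM in Ctrl and at 3.76, 4.12 and 4.48 FPKM in cKO, with all cKO values below the controls. Its cKO mean was 81.6% of control (log2 fold change -0.24, SE 0.10, 95% interval -0.470 to -0.014, adjusted p = 0.312 from limma). It was lower under all 14 alternatives in which it was tested, and its unadjusted p was no longer under 0.05 in 8 of them.

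Mrps30 and Mrps34 also had cKO values above all controls, by small amounts. Mrps30, whose product was placed in the large subunit once the structure of the ribosome was known, was at 11.7, 11.7 and 12.4 FPKM in Ctrl and at 13.4, 13.9 and 12.9 FPKM in cKO, a log2 fold change of 0.15 (SE 0.080, adjusted p = 0.407 from limma). Mrps34, which encodes a mitochondria-specific protein needed for a stable small subunit, was at 16.8, 17.9 and 20.4 FPKM in Ctrl and at 20.5, 20.9 and 20.9 FPKM in cKO, a log2 fold change of 0.17 (SE 0.091, adjusted p = 0.424 from limma), which was 0.11 without Ctrl 1 and 0.24 without Ctrl 3. In Mrps34 the gap between the highest control (20.43) and the lowest cKO value (20.45) was far smaller than the spread of the controls (SD 1.85).

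**Figure D4:**
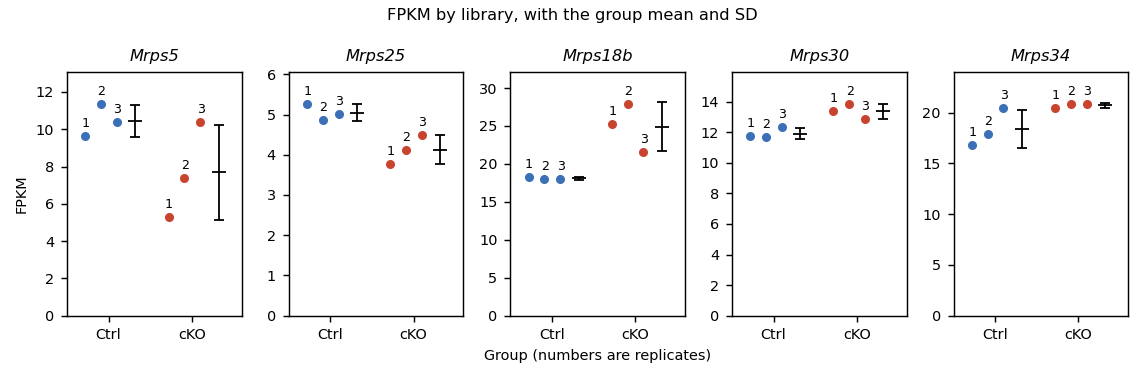
FPKM (vertical axes, from 0) of Mrps5, Mrps25, Mrps18b, Mrps30 and Mrps34 in each library, with the replicate number above each point and the mean with SD (n = 3) beside each group. The groups overlap for Mrps5, where the library labelled cKO 3 is at 10.4 FPKM, and are apart for the others, by the widest margin for Mrps18b.

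Members of either class lay on both sides of the control level. The classes follow whether a bacterial ribosome has a protein in the same position, so Mrps18b, which is of bacterial descent but is placed elsewhere than bacterial S18, stands with the mitochondria-specific members. Of the 15 partners with a bacterial counterpart, 7 were lower and 8 higher, their log2 fold changes having a median of 0.02 and a range from -0.16 (Mrps21) to 0.16 (Mrps28, 17.0, 18.0 and 20.1 FPKM in Ctrl and 22.3, 19.8 and 19.6 FPKM in cKO). Among the 11 mitochondria-specific members, 7 were lower and 4 higher, with a median of -0.04 and a range from -0.24 (Mrps25) to 0.43 (Mrps18b), or to 0.17 (Mrps34) without Mrps18b. Of the 3 members whose products are placed outside the small subunit, Mrps36 was lower and Mrps18a and Mrps30 higher. Summed over the class, FPKM was 383, 406 and 420 in Ctrl and 376, 392 and 418 in cKO for the partners with bacterial counterparts, and 170, 176 and 181 in Ctrl and 175, 184 and 174 in cKO for the mitochondria-specific members, so both classes overlapped between the groups. These classes were drawn from general knowledge of the ribosome, and no test was made of them.

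The best studied of the other members had overlapping groups. Mrps12, whose bacterial counterpart lies at the decoding centre, was at 19.1, 23.3 and 23.6 FPKM in Ctrl and at 20.4, 21.9 and 24.7 FPKM in cKO (log2 fold change 0.02, SE 0.111). Dap3, the GTP-binding protein first described in cell death, was at 16.8, 15.4 and 13.8 FPKM in Ctrl and at 14.5, 13.2 and 12.7 FPKM in cKO (-0.17, SE 0.099). Mrps22, in which human mutations have been linked to cardiomyopathy, was at 26.7, 29.5 and 27.4 FPKM in Ctrl and at 25.9, 29.1 and 26.1 FPKM in cKO (-0.04, SE 0.085). In Dap3 the means differed by more than either SD (15.3 ± 1.49 and 13.5 ± 0.946 FPKM, SD, n = 3), with an adjusted p of 0.453 from limma. The remaining members, namely Mrps2, Mrps6, Mrps7, Mrps9, Mrps10, Mrps11, Mrps14, Mrps16, Mrps17, Mrps23, Mrps24, Mrps27, Mrps31 and Mrps33, had overlapping groups too, with log2 fold changes between -0.12 (Mrps14, SE 0.139) and 0.16 (Mrps10, SE 0.089).

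For 14 of the 30 members the table lists several transcripts, up to 10 for Dap3 and Mrps17 and 57 over the 14, and in several of them the share of each transcript varied widely between replicates. In Mrps10 the transcript ENSMUST00000060752 was at 8.07 FPKM in Ctrl 1, against 4.16 FPKM for the next, and was listed at 0 in the other 5 libraries. The sum over all Mrps10 transcripts was nevertheless 16.1, 15.8 and 17.6 FPKM in Ctrl and 19.5, 19.1 and 17.0 FPKM in cKO. In Mrps23 the transcript ENSMUST00000024486 ran from 28.5% of the gene in Ctrl 1 to 78.8% in the library labelled cKO 3, while the sum stayed between 10.3 and 13.8 FPKM. Of the 57, 2 were listed at 0 in every library. For 9 of the other 55 (16.4%) the share of the gene did not overlap between the groups, and the same held for 10.9% of the 29718 such transcripts over all tested genes. Of these, 4 were of Dap3 and the others of Mrps17, Mrps18b and Mrps5. In Dap3, ENSMUST00000174077 took 9.71%, 8.63% and 9.32% of the gene in Ctrl and 13.7%, 12.9% and 13.97% in cKO. ENSMUST00000107491 of the same gene took 11.7%, 10.6% and 10.2% in Ctrl and 6.50%, 6.77% and 8.58% in cKO. In Mrps17, ENSMUST00000121339 took 27.1%, 26.2% and 20.4% in Ctrl and 17.5%, 16.9% and 17.4% in cKO. These transcripts were named after their values were seen, and their shares were not tested.

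In Mrps14 the spread between controls lay in 1 of its transcripts. Its longer transcript, ENSMUST00000135680, was at 7.91, 7.66 and 8.06 FPKM in Ctrl and at 8.09, 9.77 and 8.41 FPKM in cKO, whereas the shorter ENSMUST00000097193 went from 4.86 to 11.6 FPKM among the controls and from 4.27 to 7.66 FPKM in cKO. The wide spread of the Mrps14 sum in control hearts (12.8, 19.2 and 16.7 FPKM) was that of the shorter transcript. The median length of the members' main transcripts was 1152 bases, against 2921 over the 12112 tested genes found in the GENCODE M21 annotation, and their median GC content was the same, 50.2%.

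**Figure D5:**
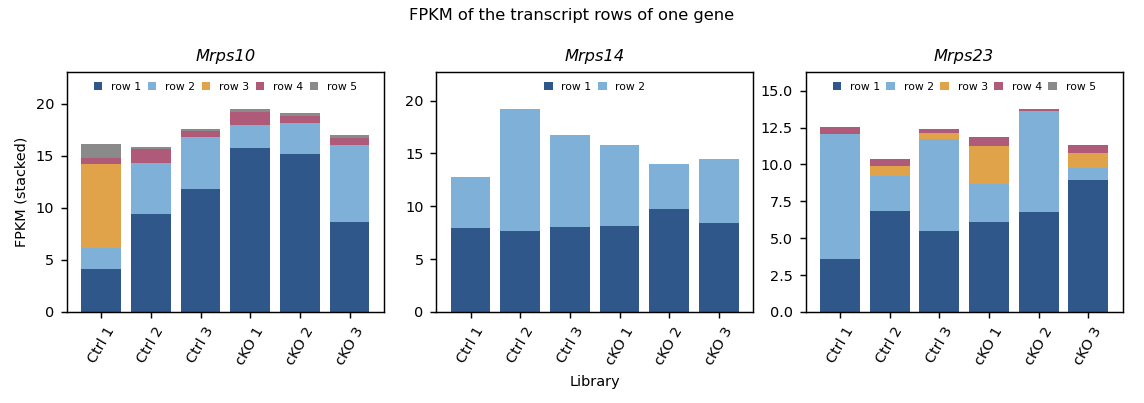
FPKM of each listed transcript (stacked colours, numbered by size) of Mrps10, Mrps14 and Mrps23 in the 6 libraries on the horizontal axis. The stacks differ in make-up between replicates of a group, as in Mrps10, where the third transcript is present in Ctrl 1 and at 0 elsewhere, while the heights of the Mrps10 stacks stay between 15.8 and 19.5 FPKM.

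Genes that work with these proteins were read in the same fit. Of 3 further small subunit proteins, Chchd1, Aurkaip1 and Ptcd3, none had an unadjusted p under 0.05. Of 9 genes for factors that build the small subunit or modify its RNA, 1 was past that mark and lower, where 9.43% of all genes were, and the median difference of the 9 was 0.05 on the log2 scale. It was Trmt2b, a methyltransferase gene, at 14.8, 13.2 and 15.6 FPKM in Ctrl and at 10.9, 11.3 and 12.5 FPKM in cKO (log2 fold change -0.31, SE 0.095, adjusted p = 0.213 from limma). Its groups did not overlap, and the other 8 factor genes, among them Noa1, Eral1, Rbfa and Nsun4, had log2 fold changes between -0.02 (Ybey) and 0.18 (Nsun4).

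Differences in the large subunit went in both directions. Of its 50 genes, 3 were past the mark and lower and 2 past it and higher, where 9.43% and 5.58% of all genes were, and the median log2 fold change was -0.02. Mrpl42 had the most negative value, at 108, 113 and 114 FPKM in Ctrl and 85.6, 86.5 and 96.0 FPKM in cKO (-0.32, SE 0.083, adjusted p = 0.166 from limma). Mrpl48 was at 9.93, 9.52 and 9.87 FPKM in Ctrl and at 8.18, 7.74 and 7.03 FPKM in cKO (-0.32, SE 0.089, adjusted p = 0.180 from limma). Mrpl38 was higher, at 19.9, 20.8 and 23.1 FPKM in Ctrl and 25.5, 25.9 and 24.8 FPKM in cKO (0.25, SE 0.085, adjusted p = 0.242 from limma). None of these 3 genes overlapped between the groups, with the library labelled cKO 3 included.

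The shares of cell type markers in the summed FPKM differed between the libraries. Erythroid markers took 12.0% to 13.3% of the summed FPKM in Ctrl and 23.5%, 10.8% and 21.99% in cKO 1, 2 and the library labelled cKO 3. Of the 14, 7 had an unadjusted p under 0.05, all higher in cKO, where 5.58% of all genes were. With the erythroid share as a covariate, the log2 fold change was -0.41 for Mrps5, 0.55 for Mrps18b and -0.23 for Mrps25. In that fit their unadjusted p was 0.162, 0.00192 and 0.117 from limma, so Mrps25 was no longer under 0.05. Cardiomyocyte markers, by which the labelled tissue was checked, took 2.46% to 2.95% in Ctrl and 1.97% to 2.45% in cKO. All 12 passed the filter, with 7 past the mark and lower (9.43% of all genes) and 1, Nppa, higher (5.58% of all genes). In these bulk libraries fewer cells of a type and less RNA per cell cannot be told apart, and Mrps5 message from cells without Cre is counted with that of cardiomyocytes. Endothelial markers took 0.0389% to 0.0415% in Ctrl and 0.0353% to 0.0446% in cKO. Of these 8, 5 were lower and 3 higher, and 1 (Emcn, higher) was past the mark. Epicardial and mesenchymal markers (0 of 10 past the mark) took 0.0912% to 0.0917% in Ctrl and 0.0739% to 0.106% in cKO. Of 9 markers of other tissues, 5 passed the filter and 1 (Tubb3) was past the mark, higher. The 30 members together took 0.140% to 0.148% of the summed FPKM in Ctrl and 0.122% to 0.144% in cKO, and their summed FPKM was 638, 671 and 695 in Ctrl and 627, 659 and 682 in cKO. Under a scaling without erythroid genes the log2 fold change was -0.42 for Mrps5, 0.46 for Mrps18b and -0.22 for Mrps25. The part of the cell make-up in the differences of single members was not tested beyond the covariate and this scaling.

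The depth of the libraries is unknown, since the table gives no counts. Summed FPKM was between 454692 and 515952, genes with at least 1 FPKM numbered 12832 to 13516 per library, and log2 values correlated across genes at 0.979 to 0.986 within groups and at 0.972 to 0.980 between them.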

How the data were processed

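Per the labels, total RNA from embryonic hearts was depleted of ribosomal RNA and made into strand-specific libraries, 3 from Ctrl and 3 from cKO hearts. The authors deposited FPKM per transcript (60776 transcripts of 26199 genes), which are scaled to transcript length and mapped fragments. The submitters' processing notes name Bowtie2 2.2.8, HISAT2, StringTie 1.3.1, Cuffdiff 2.1.1 and mm9, without their roles, and the annotation release is not given in the sources used here. FPKM was summed per gene, and 27 symbols that had become dates were restored through the gene identifiers. Genes that reached 1 FPKM in 3 or more libraries were compared as log2(FPKM + 1) with limma 3.58.1 (trended variance, R 4.3.3), with Benjamini-Hochberg adjustment over all 13262 genes tested. The code was tested on simulated data.

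The members, gene lists and tests were chosen with earlier results of these data known. Full values are given for Mrps5, for members with an unadjusted p under 0.05 or groups that do not overlap, and for the 3 highest and 3 lowest members by mean FPKM. Of the other lists, up to 3 genes with an unadjusted p under 0.05 are named. Mrps12, Mrps22, Mrps28, Dap3, Mrps18a, Mrps18c, Mrps10, Mrps14 and Mrps23 were added after their values were seen, as were the classes of members. Promoter windows (RefSeq, GRCm38.p6) and transcript lengths (GENCODE M21) were matched by symbol or identifier. The p-values measure the spread between 3 pools a group. Protein sequences were not used here. The 15 alternatives changed the pseudocount (0.1), the filter, the scaling, the transcripts summed, the model or the libraries.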

Additional observations from a re-analysis of the deposited data

How the results depend on the processing

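With 3 libraries a group and unknown depth, the 95% intervals of the partners extended 0.169 to 0.319 log2 units to either side. Mrps5 passed an unadjusted p of 0.05 with replicate as a block (-0.44, adjusted p = 0.253 from limma), and leaving out libraries in turn moved it from -0.66 to -0.23, past that mark without cKO 3. The replicate numbers share only a label. Deviations from the group mean correlated at 0.215, 0.108 and 0.0892 for same-numbered libraries, the highest value for every library. These values are small and are tied to each other, since deviations were taken within each group. They cannot decide whether the libraries were paired. The block called 3 members (Mrps5, Mrps18b, Mrps36) and 2217 genes in place of 1991.

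The count of members with an unadjusted p under 0.05 was 1 of 28 at a mean FPKM of at least 5 (14.5% of all genes), 1 with the erythroid share as a covariate (9.86% of all genes), and 1 to 5 when libraries were left out (9.17% to 16.3% of all genes). It was 3 with no filter (11.9% of all genes) and with the most abundant transcript (12.2%). The count was also 3 under median-ratio scaling (15.3%) and under scaling without erythroid genes (15.2%). Mrps30, Mrps34 or Mrps36 joined Mrps18b in these fits. Mrps35 changed sign to 0.01 under median-ratio scaling and under scaling without erythroid genes (0.0120 and 0.0136), and ran from -0.03 to 0.01 (-0.0285 to 0.0050) when libraries were left out, while Mrps26 ran from -0.0333 to 0.0907. The cause was not tested. Mrps18b kept its direction and an unadjusted p under 0.05 under all 15 alternatives. Mrps25 was not tested at the mean of 5, nor was Mrps26.

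Over all genes, an unadjusted p under 0.05 was met by 740 higher and 1251 lower genes, by 912 and 1110 under median-ratio scaling, by 962 and 1051 without erythroid genes, and by 652 and 656 with the covariate. Calls with an adjusted p under 0.05, 11 as reported, were 0 with the covariate (1308 at an unadjusted p under 0.05, both from limma), 4 with the most abundant transcript, 4 with the block, 5 with no filter, 6 without a trend, 5 without Ctrl 2, 6 without Ctrl 1 or 3, 7 without cKO 1, 119 without cKO 2 and 269 without cKO 3. Leaving out Ctrl 1 took the unadjusted calls to 1216.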
